A study of Mus musculus with 24 samples.

Results

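Transforming growth factor beta (Tgfb) signals through a small set of secreted ligands, cell surface receptors and extracellular binding proteins, and the 9 genes Tgfb1, Tgfb2, Tgfb3, Tgfbr1, Tgfbr2, Tgfbr3, Ltbp1, Ltbp2 and Ltbp3 are described here in cultured mouse myoblasts. They were taken by gene name from the deposited count table, where each has 1 row, and make up 9 of its 28109 genes. All 9 passed the filter on low counts in every fit. Tgfb2 was higher after silencing of Tead1 and Tead4 in both cell types, but passed the thresholds of the edgeR test in primary cells alone. There the result rested on few libraries. Over differentiation Tgfb3 and Tgfbr2 rose in both cell types, Ltbp1 fell in primary cells and, at the fold threshold, in C2C12 cells, and Ltbp2 rose in primary cells.

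The study measured polyadenylated RNA by sequencing to ask how the loss of the transcription factors Tead1 and Tead4 changes gene expression during muscle differentiation. C2C12, an established mouse myoblast line that the labels assign to the strain C3H, was compared with primary myoblasts (PMs) that were isolated from young wild-type mice of the strain C57/B6. Control cells (siControl) received an siRNA to luciferase, and silenced cells (siTead1/4) a mixture that targets both Tead genes. RNA was taken before differentiation (day 0, D0) and on days 3 and 6 of culture in horse serum medium (D3 and D6), with 2 biological replicates for each of 12 groups and thus 24 libraries. All cells, controls included, had been transfected. C2C12 is a single immortal line, while how many mice gave each PM culture is not given in the sources used here. Cell type, strain and growth medium changed together and cannot be told apart in any comparison of PMs with C2C12 cells.

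Tgfb ligands are secreted as latent complexes in which the mature dimer is held by its own propeptide, and latent Tgfb binding proteins (Ltbp) tether this complex to the extracellular matrix. The released ligand binds the type II receptor Tgfbr2, which activates the type I receptor Tgfbr1, and this kinase phosphorylates Smad2 and Smad3. Tgfbr3, also called betaglycan, is a co-receptor that presents ligand, Tgfb2 in particular, to the type II receptor. In muscle, Tgfb is best known as an inhibitor of myoblast differentiation and as a driver of matrix deposition.

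Depth, as reads counted on genes, was between 25453830 and 52784510 in C2C12 libraries and between 32571583 and 51110723 in PM libraries. Levels are given as CPM, the read count scaled to the library size by the TMM method, and a gene was called when its adjusted p was under 0.05 and its absolute log2 fold change over 1. Tead4 was lower in both siTead1/4 libraries than in both siControl libraries at each day in each cell type, with log2 fold changes from -2.58 in PMs at D3 to -1.28 in C2C12 cells at D6, and was called in all but the latter (adjusted p = 0.318). Tead1 was also lower without overlap except in C2C12 cells at D6, where the siTead1/4 libraries (70.5 and 77.0 CPM) overlapped the siControl libraries (75.98 and 136 CPM), and was called at D0 and D3 in PMs alone. The 7 myogenic markers were all detected in every library and summed to between 777 and 8145 CPM in C2C12 cells and between 5505 and 11270 CPM in PMs. Of the lists for other cell types, fibroblast markers summed to between 26.7 and 273.5 CPM, endothelial markers reached at most 16.7 CPM, and macrophage markers at most 9.33 CPM, with Ptprc and Emr1 at no more than 3 reads and 1 read in any library. Schwann cell markers summed to between 5.96 and 399 CPM. Nearly all of the highest sum came from Erbb3, which ranged from 3.88 to 397 CPM, while Sox10 stayed at or below 4.01 CPM.

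To set the genes against each other, CPM was divided by the gene length that the deposited table gives. On this scale of CPM per kilobase, Tgfb3 reached the highest group mean at 128, against 35.1 for Tgfb1 and 26.1 for Tgfb2. Among the receptors Tgfbr2 reached 49.2 CPM per kilobase, Tgfbr1 14.1 and Tgfbr3 only 0.691. Group means of the binders peaked at 42.0 for Ltbp1, 34.6 for Ltbp2 and 63.2 for Ltbp3. The deposited length was shorter than the union of annotated exons for Ltbp1 (7550 against 10688 bases) and Ltbp2 (6778 against 8193 bases), and per kilobase of that union their highest means were 29.65 and 28.6. Tgfb1 and Tgfbr3 were also shorter, by less, and the other members were equal in length. The ratio of the highest to the lowest of the 12 group means was widest for Ltbp2 at 24.0, followed by 12.1 for Tgfbr3 and 11.3 for Tgfb2, and narrowest for Ltbp3 at 2.76. Neighbouring groups in the order of means mostly overlapped. For Tgfb2, 8 of the 11 neighbouring pairs had overlapping libraries, and the clear steps lay between C2C12 siControl D0 and the next group, and on both sides of C2C12 siTead1/4 D3.

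**Figure D1:**
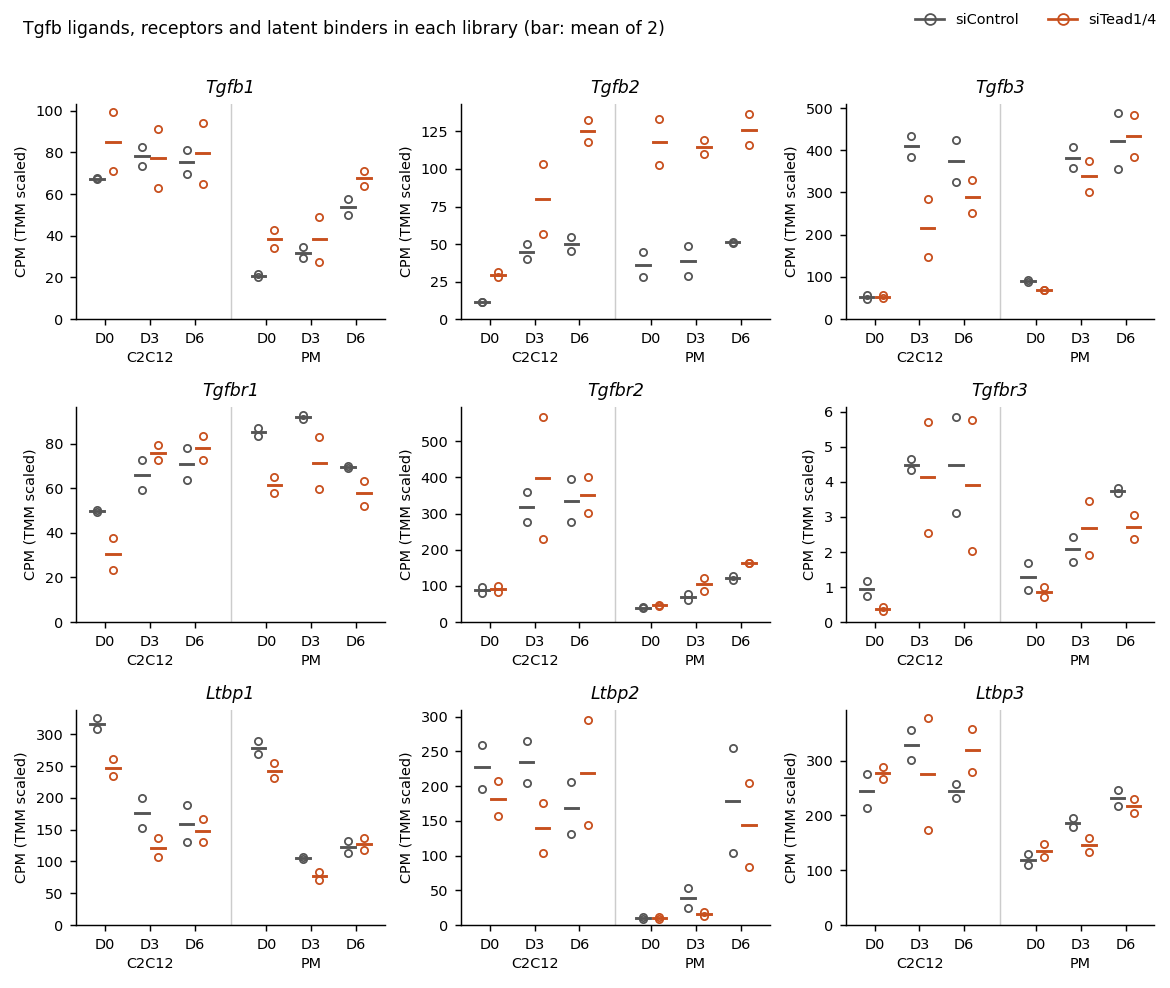
CPM (TMM scaled) of each of the 9 genes in all 24 libraries, by cell type and day, with siControl in grey and siTead1/4 in orange; circles are libraries and bars the mean of 2. Tgfb2 in the siTead1/4 libraries lies above the siControl libraries at every day in both cell types, and Ltbp2 in PMs climbs from between 8.22 and 11.4 CPM at D0 to between 83.4 and 255 CPM at D6.

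Few of the 9 genes, as of all genes, were called after silencing of Tead1 and Tead4. In C2C12 cells edgeR called 0 of 9 at D0, D3 and D6, against 0.438%, 1.27% and 0.0457% of all genes tested. At an unadjusted p under 0.05 there were 2, 3 and 1 of the 9, and DESeq2 called 1, 0 and 1, in both cases Tgfb2. Over all 15303 genes an unadjusted p under 0.05 gave 765 higher and 838 lower at D0 and 973 and 1207 at D3. At D6 it gave 380 and 684. DESeq2 called 108 higher and 147 lower of 13856 genes at D0 and 197 and 407 of 14341 at D3. At D6 it called 35 and 107 of 16281. In PMs 1 of 9 was called at each day, which was Tgfb2 each time, against a background of 2.6%, 3.3% and 0.743%. The median log2 fold change of the 9 genes in PMs was 0.040 at D0, -0.19 at D3 and 0.044 at D6. Over all genes these medians were -0.0066, 0.0079 and 0.00070. The median absolute log2 fold change of the 9 in PMs was 0.41, 0.37 and 0.31, beside 0.25, 0.23 and 0.17 over all genes. In C2C12 cells it was 0.34, 0.31 and 0.21, beside 0.26, 0.27 and 0.23.

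Tgfb2 (ENSMUSG00000039239, chr1:188447065-188529871 of mm9, minus strand) encodes the ligand for which betaglycan is most needed. The 250 bases before its start in the RefSeq table of the later build GRCm38.p6 (chr1:186705990-186706239, minus strand) are shown because it was the one member called after the knockdown, and those of Ltbp2 (chr12:84876492-84876741, minus strand) because it had the widest range. Capitals mark every match, on either strand, to any of 4 motifs. The MCAT core that Tead proteins bind was searched as CATTCC. An AP-1 site was searched as TGANTCA. An E-box was searched as CANNTG, and a TATA box as TATAAA.

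Tgfb2: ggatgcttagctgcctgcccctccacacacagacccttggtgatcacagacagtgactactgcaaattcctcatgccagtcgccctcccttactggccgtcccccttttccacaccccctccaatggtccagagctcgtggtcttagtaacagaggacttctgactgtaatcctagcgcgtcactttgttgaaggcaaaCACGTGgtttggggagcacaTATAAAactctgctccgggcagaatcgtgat

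Ltbp2: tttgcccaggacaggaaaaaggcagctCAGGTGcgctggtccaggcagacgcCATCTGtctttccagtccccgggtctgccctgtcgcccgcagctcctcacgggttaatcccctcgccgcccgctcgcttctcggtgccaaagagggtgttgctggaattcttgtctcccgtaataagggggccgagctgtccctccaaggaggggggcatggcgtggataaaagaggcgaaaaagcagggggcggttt

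The Tgfb2 window held 1 E-box, from 51 to 46 bases before the start, and 1 TATA box, from 31 to 26 bases before it, which do not overlap. The Ltbp2 window held 2 E-boxes and no TATA box. A TATA box was the rarer of these letters, in 12.4% of all 32851 windows of this length, while an E-box was in 66.2%. The MCAT core, in 12.6% of all windows, and the AP-1 letters, in 6.75%, were in none of the 9 windows found for 7 of the 9 genes, which says only that these letters are not in these windows. The table gave no window for Tgfb3 and Tgfbr3.

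In PMs at D0 Tgfb2 stood at 27.8 and 44.8 CPM in the siControl libraries and at 103 and 133 CPM in the siTead1/4 libraries. Both siTead1/4 values were far above the highest siControl value, and the fitted rise was 3.24-fold (log2 fold change 1.70, SE 0.26, adjusted p = 0.00529). At D3 the siControl libraries had 28.7 and 49.0 CPM and the siTead1/4 libraries 110 and 119 CPM, again without overlap (log2 fold change 1.55, SE 0.26, adjusted p = 0.00684). By D6 the values were 51.4 and 51.0 CPM against 137 and 116 CPM, a rise of 2.47-fold (log2 fold change 1.30, SE 0.26, adjusted p = 0.0445). Tgfb2 was thus higher after silencing at each time point of the PM culture, and the siTead1/4 libraries of the 3 days overlapped each other. In such bulk cultures a change in the share of cells of a type and a change in RNA per cell cannot be told apart. The 6 fibroblast markers summed to 47.4 to 59.7 CPM after silencing and 50.0 to 60.2 CPM in controls at D0, and to 115 to 153 against 127 to 144 CPM at D3, so they overlapped at both days. At D6 they were higher after silencing, with 269 to 273.5 against 218.5 to 247.5 CPM, and their part in the D6 result was not tested.

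These PM calls rested on few libraries. Without PM siControl replicate 1 the log2 fold change was 1.40 at D0 (adjusted p = 0.0530), and without the same replicate at D3 it was 1.22 (adjusted p = 0.0515). At D6 each of the 4 leave-outs lost the call, with log2 fold changes from 1.18 to 1.41 and adjusted p from 0.0839 (without siTead1/4 replicate 2) through 0.157 (siControl replicate 2) and 0.187 (siControl replicate 1) to 0.204 (siTead1/4 replicate 1).

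In C2C12 cells Tgfb2 moved in the same direction but was not called by edgeR. At D0 the siControl libraries had 11.2 and 11.2 CPM and the siTead1/4 libraries 31.6 and 27.8 CPM, which gave a log2 fold change of 1.40 (SE 0.27, adjusted p = 0.0582). Values at D3 were 40.0 and 49.9 CPM against 103.5 and 56.5 CPM, where the siTead1/4 replicates lay far apart and the closer one exceeded the higher control by little. D6 gave 45.4 and 54.9 CPM against 118 and 132 CPM, a log2 fold change of 1.33 (SE 0.27, adjusted p = 0.143). The groups did not overlap at any of these days. DESeq2 called Tgfb2 at D0 (adjusted p = 0.000628) and D6 (adjusted p = 0.00314), and so did a fit of all 24 libraries together (adjusted p = 0.0119 and 0.0417). Summed fibroblast markers in C2C12 cells, siTead1/4 first, were 110 to 255 against 73.7 to 88.0 CPM at D0. They were 26.8 to 51.9 against 120.5 to 241 CPM at D3 and 26.7 to 41.8 against 57.6 to 209 CPM at D6. Their part in the Tgfb2 result was not tested.

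Other marker lists moved in the same silenced libraries. The 7 myogenic markers summed to less after silencing in PMs at D0 (5505 to 5698 against 5835 to 5919 CPM) and D3 (8816 to 9669 against 10830 to 11060 CPM), and overlapped at D6. In C2C12 cells they overlapped at D0 and were lower at D3 (3790 to 5222 against 6680 to 6947 CPM) and D6 (4630 to 6903 against 7631 to 8145 CPM). Schwann cell markers, mostly Erbb3, were lower without overlap in PMs at D0 (98.8 to 109 against 132 to 139 CPM), D3 (243 to 299.6 against 363 to 382 CPM) and D6 (210.4 to 269.9 against 271 to 304 CPM). In C2C12 cells they were lower at D0 (5.96 to 8.06 against 22.6 to 26.4 CPM) and D3 (101 to 191 against 312 to 399 CPM), and overlapped at D6. The part of these lists and of the fibroblast markers in the Tgfb2 result was not tested.

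Tgfb2 was the only one of the 9 genes whose siTead1/4 libraries were both above both siControl libraries in all 6 settings of cell type and day. Of the 14577 genes tested in both cell types 66 did so, which is 0.453%. No member had a call for a difference of the knockdown effect between PMs and C2C12 cells at D0, D3 or D6, against 0.00591%, 1.25% and 0.0354% of all genes. Here edgeR and DESeq2 called 0 of 9, and 0 of 9 had an unadjusted p under 0.05, at each day. Over all 16926 genes an unadjusted p under 0.05 gave 396 higher and 329 lower at D0. It gave 1247 and 958 at D3 and 604 and 312 at D6. DESeq2 called 15 higher and 17 lower of all genes at D0, 354 and 140 at D3, and 48 and 12 at D6. The differences of the 9 genes, PM effect minus C2C12 effect on the log2 scale, lay between -0.41 and 0.79 at D0, between -0.60 and 0.74 at D3 and between -0.69 and 0.41 at D6.

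**Figure D2:**
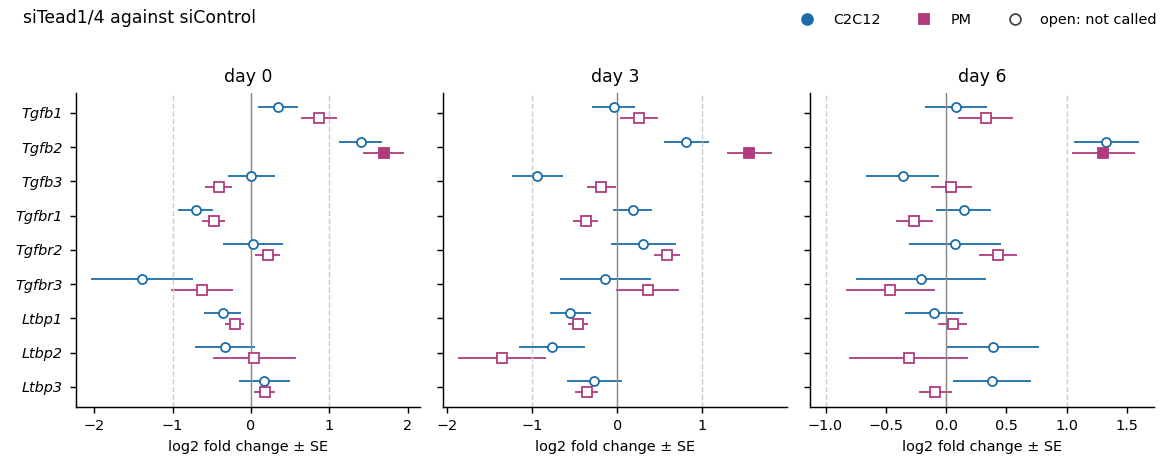
Log2 fold change of siTead1/4 against siControl with its standard error for the 9 genes at D0, D3 and D6, C2C12 as blue circles and PMs as purple squares, filled where called; dashed lines mark a log2 fold change of 1 in either direction. Filled symbols are Tgfb2 in PMs at the 3 days, and the C2C12 values of Tgfb2 at D0 and D6 are of similar size but open.

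The other ligands responded less. Tgfb1 in PMs at D0 was 20.2 and 21.5 CPM with siControl and 34.1 and 42.7 CPM with siTead1/4, a log2 fold change of 0.87 (SE 0.23, adjusted p = 0.0450) that stayed under the fold threshold. Tgfb3 passed neither threshold at any day. Its C2C12 D3 values were nonetheless well apart at 383 and 435 CPM against 284 and 148 CPM, and without siTead1/4 replicate 1 it was called lower (log2 fold change -1.49, adjusted p = 0.0263), as was the difference from PMs (1.28, adjusted p = 0.0321). This gene and day were picked after their values were seen.

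Tgfbr1 and Tgfbr2 were not called after silencing in either cell type. Tgfbr1 in PMs was lower without overlap at each day, with 65.2 and 58.1 against 87.0 and 83.4 CPM at D0, 83.0 and 59.9 against 92.9 and 91.2 CPM at D3 and 63.4 and 52.3 against 70.0 and 68.9 CPM at D6. Of all genes tested in PMs 5.44% were lower without overlap at all 3 days. In C2C12 cells Tgfbr1 was lower at D0, with 37.8 and 23.4 against 49.3 and 50.4 CPM, and higher at D3, with 72.6 and 79.4 against 59.2 and 72.5 CPM, while the libraries overlapped at D6. Tgfbr2 in PMs was higher without overlap at each day, with 45.6 and 47.4 against 39.5 and 40.3 CPM, then 86.5 and 123 against 61.3 and 77.4 CPM, then 162 and 164 against 116 and 127 CPM, a pattern that 5.59% of all genes tested in PMs had. Neither receptor passed an adjusted p of 0.05 or a log2 fold change of 1 at any day in PMs. Tgfbr3 was the scarcest member, and in C2C12 cells at D0 had 0.732 and 1.17 CPM with siControl and 0.305 and 0.439 CPM with siTead1/4 (log2 fold change -1.39, SE 0.65, adjusted p = 0.492). The groups did not overlap, and the difference was called there when no filter on low counts was used (-1.43, adjusted p = 0.0489).

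Of the binders, Ltbp1 in PMs at D3 was 107 and 103 CPM with siControl and 70.5 and 83.4 CPM with siTead1/4 (log2 fold change -0.46, SE 0.12, adjusted p = 0.0447), a small decrease. Ltbp2 at the same time had 53.7 and 25.1 CPM with siControl and 18.3 and 12.6 CPM with siTead1/4, with no overlap but a wide spread (log2 fold change -1.36, SE 0.52, adjusted p = 0.149). It was called when no filter on low counts was used (adjusted p = 0.00138). Ltbp3 passed neither threshold. The remaining pairs of gene and day had log2 fold changes between -0.94 and 0.81 in C2C12 cells and between -0.62 and 0.58 in PMs, and the lowest adjusted p among them was 0.050012, in PMs at D3.

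The next comparison followed the 9 genes over differentiation in control cells. In siControl C2C12 cells 4 rose and 0 fell at D3 against D0, with 28.7% of all genes called, and 4 rose and 1 fell at D6 against D0, with 31.1% called. Both comparisons share the D0 libraries. No member was called between D3 and D6, where edgeR called 0.0% of all genes. For all genes in that comparison an unadjusted p under 0.05 gave 255 higher and 151 lower, and DESeq2 called 19 higher and 0 lower, none of them a member. In siControl PMs 2 rose and 1 fell at D3 against D0 (background 32.3%), 5 rose and 1 fell at D6 against D0 (35.5%), and 1 rose at D6 against D3 (2.8%). The median log2 fold change of the 9 at D6 against D0 was 0.47 in C2C12 cells and 1.30 in PMs, beside -0.012 and 0.029 over all genes.

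**Figure D3:**
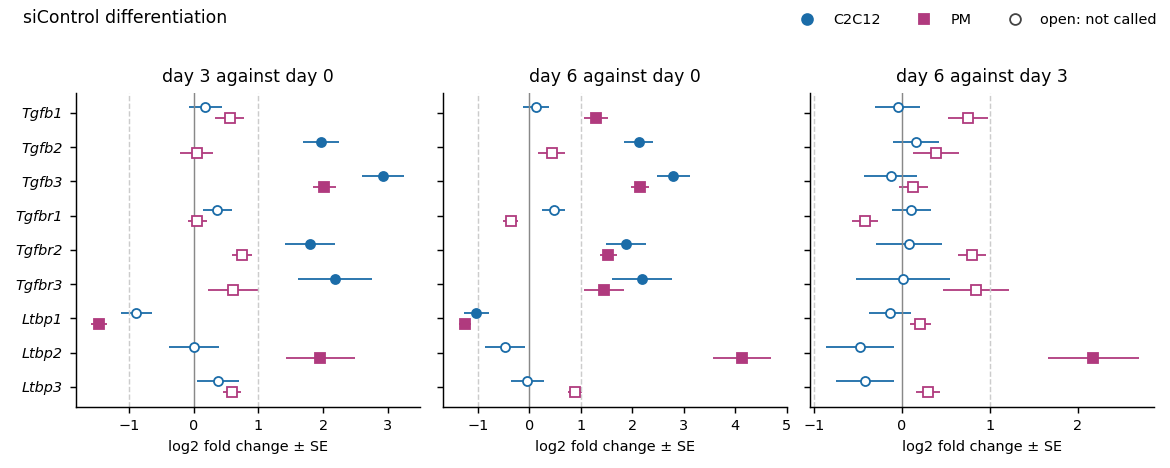
Log2 fold change between days in siControl cells with its standard error, for D3 against D0, D6 against D0 and D6 against D3, symbols as in the knockdown plot. Tgfb3 and Tgfbr2 lie to the right and Ltbp1 to the left of 0 in both cell types at D3 and D6 against D0, Tgfb2 against D0 lies at 1.96 and 2.12 in C2C12 cells and no higher than 0.43 in PMs, and Ltbp2 in PMs reaches 4.13.

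Tgfb3 (ENSMUSG00000021253, chr12:87397694-87419991 of mm9, minus strand), the ligand with the highest level per length, rose in both cell types. C2C12 siControl libraries went from 57.2 and 47.7 CPM at D0 to 383 and 435 CPM at D3 and 324 and 424 CPM at D6. PMs went from 93.0 and 88.8 CPM to 357 and 408 CPM and then 356 and 487 CPM. No D0 library came near a later one in either cell type. The log2 fold change against D0 was 2.92 (SE 0.32, adjusted p = 9.4e-05) at D3 and 2.79 (SE 0.32, adjusted p = 0.000105) at D6 in C2C12 cells, and 2.02 (SE 0.17, adjusted p = 4.6e-06) and 2.15 (SE 0.18, adjusted p = 2.6e-06) in PMs.

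Tgfb2 was called over time in C2C12 cells and not in PMs. Its C2C12 siControl level, 11.2 CPM in both libraries at D0, was 3.90-fold higher at D3 (log2 fold change 1.96, SE 0.28, adjusted p = 0.000425) and 4.35-fold higher at D6 (2.12, SE 0.28, adjusted p = 0.000242). PM siControl libraries overlapped between D0 and D3, at D6 both (51.4 and 51.0 CPM) lay above both at D0 (27.8 and 44.8 CPM), and neither threshold was passed at D3 or D6. The time course itself differed between the cell types, with a PM minus C2C12 difference of -1.90 at D3 (SE 0.40, adjusted p = 0.00353) and -1.66 at D6 (SE 0.40, adjusted p = 0.00827). Without PM siControl D0 replicate 2 the D6 difference was -1.27 (adjusted p = 0.0605). Such differences in the time course were called for 11.2% of all genes at D3 and 12.7% at D6, and for 1 and 3 of the 9 genes. At D0 both C2C12 siControl libraries lay below both PM siControl libraries, and at D3 the libraries of the cell types overlapped.

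Tgfb1 (ENSMUSG00000002603, chr7:26472021-26490096 of mm9, plus strand), the ligand most studied in fibrosis, showed the reverse pattern. C2C12 siControl libraries stayed between 67.0 and 82.7 CPM over all days. In PMs the siControl values were 20.2 and 21.5 CPM at D0, 29.1 and 34.5 CPM at D3 and 49.7 and 57.8 CPM at D6, each day above the one before. The D6 rise in PMs was 2.46-fold (log2 fold change 1.30, SE 0.23, adjusted p = 0.000608). Its difference from the C2C12 time course was 1.20 (SE 0.36, adjusted p = 0.0309) and lost the call in each of the 8 leave-outs, with values from 1.10 to 1.33 and adjusted p from 0.0508 without PM siControl D6 replicate 1 to 0.109 without C2C12 siControl D6 replicate 1.

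Tgfbr2 (ENSMUSG00000032440, chr9:115993415-116084383 of mm9, minus strand), the ligand-binding type II receptor, rose in both cell types. C2C12 siControl libraries had 97.6 and 80.7 CPM at D0, 359 and 277 CPM at D3 and 394 and 276 CPM at D6. The log2 fold changes against D0 were 1.79 (SE 0.39, adjusted p = 0.00490) and 1.87 (SE 0.39, adjusted p = 0.00363). PMs started at 39.5 and 40.3 CPM and reached 61.3 and 77.4 CPM at D3 and 116 and 127 CPM at D6. Here the change was 0.74 at D3 (SE 0.16, adjusted p = 0.00212), under the fold threshold, 1.54 at D6 (SE 0.16, adjusted p = 1.4e-05), and 0.79 from D3 to D6 (SE 0.16, adjusted p = 0.0188). The type I receptor Tgfbr1 (ENSMUSG00000007613, chr4:47366094-47427803 of mm9, plus strand) passed neither threshold over time in either cell type. Its siControl libraries lay between 49.3 and 78.1 CPM in C2C12 cells, where both at D0 were below all later ones. In PMs they lay between 68.9 and 92.9 CPM. There both at D6 (70.0 and 68.9 CPM) were below both at D0 (87.0 and 83.4 CPM) and both at D3 (92.9 and 91.2 CPM). The difference in time course of Tgfbr2 at D3 was -1.04 (SE 0.44, adjusted p = 0.135), and was called with no filter on low counts (adjusted p = 0.0176) and in a fit of its own libraries alone (adjusted p = 0.0141).

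Tgfbr3 (ENSMUSG00000029287, chr5:107535589-107718648 of mm9, minus strand), the betaglycan co-receptor, also rose but from low counts. In C2C12 siControl cells it went from 0.732 and 1.17 CPM at D0 to 4.65 and 4.33 CPM at D3 (log2 fold change 2.18, SE 0.58, adjusted p = 0.0129) and 5.86 and 3.11 CPM at D6 (2.19, SE 0.58, adjusted p = 0.0117). Without C2C12 siControl D0 replicate 1 these were 1.90 (adjusted p = 0.0923) and 1.91 (adjusted p = 0.0841), and without D6 replicate 1 the latter was 1.65 (adjusted p = 0.0891). PM siControl libraries had 1.70 and 0.901 CPM at D0, 2.44 and 1.72 CPM at D3 and 3.69 and 3.81 CPM at D6. The D6 change in PMs was 1.45 (SE 0.38, adjusted p = 0.00699), or 1.07 (adjusted p = 0.0611) without PM siControl D0 replicate 2. The difference in time course at D3 was -1.55 (SE 0.72, adjusted p = 0.183).

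Ltbp1 (ENSMUSG00000001870, chr17:75404908-75791852 of mm9, plus strand), the binder that links latent Tgfb to the matrix, was the one member called lower over time. In PM siControl cells it dropped from 268 and 290 CPM at D0 to 107 and 103 CPM at D3 and 131 and 114 CPM at D6. Those falls were 2.76-fold (log2 fold change -1.46, SE 0.12, adjusted p = 3.4e-06) and 2.39-fold (-1.25, SE 0.12, adjusted p = 8.0e-06). C2C12 siControl libraries had 309 and 325 CPM at D0, 152 and 200 CPM at D3 and 131 and 188 CPM at D6, all later values below all D0 values. The change in C2C12 cells was -0.89 at D3 (SE 0.24, adjusted p = 0.0146) and -1.03 at D6 (SE 0.24, adjusted p = 0.00660), on either side of the fold threshold. By DESeq2 the D6 change was -0.98 (adjusted p = 0.00141) and was not called. Without C2C12 siControl D3 replicate 2 the D3 change was -1.10 and was called (adjusted p = 0.0325), while the D6 change was -0.98 without D0 replicate 2 (adjusted p = 0.0373) and -0.79 without D6 replicate 1 (adjusted p = 0.0712).

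Ltbp2 (ENSMUSG00000002020, chr12:86124162-86217482 of mm9, minus strand), which unlike Ltbp1 and Ltbp3 does not bind latent Tgfb and is known from elastic fibre assembly, had the largest fold change of the 9. PM siControl libraries had 8.22 and 11.4 CPM at D0, 53.7 and 25.1 CPM at D3 and 255 and 103 CPM at D6. Each day was above the one before without overlap, although the replicates lay far apart at D3 and D6. Against D0 the log2 fold change was 1.96 at D3 (SE 0.53, adjusted p = 0.00883) and 4.13 at D6 (SE 0.57, adjusted p = 0.000109), a 17.5-fold rise, or 3.34 without D6 replicate 1, and from D3 to D6 it was 2.17 (SE 0.52, adjusted p = 0.0373). Without PM siControl D3 replicate 1 the D3 change was 1.31 (adjusted p = 0.0823) and without D0 replicate 1 it was 1.75 (adjusted p = 0.0663). The D3 to D6 change lost its call without D3 replicate 1 (2.82, adjusted p = 0.0726), D3 replicate 2 (1.72, adjusted p = 0.174) or D6 replicate 1 (1.38, adjusted p = 0.175). C2C12 siControl libraries lay between 131 and 265 CPM at all days and passed neither threshold between any of them. The difference between the time courses at D6 was 4.63 (SE 0.73, adjusted p = 0.000268), or 3.84 without PM siControl D6 replicate 1, and at D3 it was 1.97 (SE 0.70, adjusted p = 0.0761), or 2.43 (adjusted p = 0.0409) without PM siControl D3 replicate 2. The D3 difference was also called by DESeq2 (adjusted p = 0.0287), with no filter on low counts (9.8e-05) and in a fit of its own libraries alone (0.0158).

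Fibroblast markers rose in the same PM libraries, from 50.0 to 60.2 CPM at D0 to 127 to 144 CPM at D3 and 218.5 to 247.5 CPM at D6 summed over the 6 genes, and their part in the rises of Ltbp2, Tgfb1 and Tgfbr3 in PMs was not tested. Over all 24 libraries Ly6a reached 248 CPM, Col15a1 201, Thy1 84.0 and Pdgfra 27.6, while Dpt and Lum reached 2.65 and 1.71 CPM. The kit did not keep the strand, and Ltbp2 shares 764 of its 8193 exon bases with D030025P21Rik on the opposite strand, a gene with 5 to 186 reads per library against 388 to 13310 for Ltbp2.

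Ltbp3 (ENSMUSG00000024940, chr19:5740904-5758532 of mm9, plus strand), a binder known from bone and tooth development, rose moderately in PMs. Its siControl values there were 109 and 129 CPM at D0, 195 and 179 CPM at D3 and 217 and 246 CPM at D6. The log2 fold changes of 0.60 at D3 (SE 0.14, adjusted p = 0.00358) and 0.89 at D6 (SE 0.14, adjusted p = 0.000248) stayed under the fold threshold, though without PM siControl D0 replicate 2 the latter was 1.01 and was called (adjusted p = 0.00107). In C2C12 siControl cells the libraries lay between 214 and 356 CPM and passed neither threshold.

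Set side by side in siControl cells, PMs had less Tgfb1, Tgfbr2 and Ltbp2 than C2C12 cells at D0 and D3, and more Tgfb2 at D0. At D0, 1 of the 9 genes was higher and 4 were lower in PMs (26.8% of all genes called), at D3 0 were higher and 3 lower (29.8%), and at D6 0 were higher and 1 lower (24.9%). DESeq2 likewise called 0 higher at D3 and D6, and at an unadjusted p under 0.05 there were 1 and 0 higher. Over all genes DESeq2 called 2801 and 2518 higher, and an unadjusted p under 0.05 gave 4652 and 4153 higher. Tgfb2 was the one higher at D0, by 3.23-fold (log2 fold change 1.69, SE 0.29, adjusted p = 0.000167), with 27.8 and 44.8 CPM against 11.2 and 11.2 CPM. Tgfb3 (0.79, SE 0.25, adjusted p = 0.0193) and Tgfbr1 (0.77, SE 0.20, adjusted p = 0.00508) were also higher in PMs but under the fold threshold.

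Lower in PMs were Tgfb1, Tgfbr2 and Ltbp2 at more than 1 day. Tgfb1 differed by -1.69 at D0 (SE 0.26, adjusted p = 5.9e-05) and -1.30 at D3 (SE 0.26, adjusted p = 0.000580). Tgfbr2 differed by -1.16 at D0 (SE 0.31, adjusted p = 0.00672) and -2.20 at D3 (SE 0.32, adjusted p = 3.6e-05). At D6 its difference was -1.47 (SE 0.31, adjusted p = 0.00142), and it was called at each day. How many of all genes were called at all 3 days was not counted. Ltbp2 was 23.3-fold lower at D0 (log2 fold change -4.54, SE 0.57, adjusted p = 6.6e-06) and 5.96-fold lower at D3 (-2.57, SE 0.52, adjusted p = 0.000661), or -3.25 without PM siControl D3 replicate 1, while at D6 the libraries of both cell types overlapped. Ltbp3 was lower at D0 (-1.04, SE 0.26, adjusted p = 0.00404) and, under the fold threshold, at D3 (-0.81, SE 0.26, adjusted p = 0.0166), as was Ltbp1 at D3 (-0.74, SE 0.19, adjusted p = 0.00440). The D0 call of Ltbp3 was lost without C2C12 siControl replicate 1 (-0.87, adjusted p = 0.0392) or PM siControl replicate 1 (-0.96, adjusted p = 0.0401). Tgfbr3 at D3 was -1.11 (SE 0.50, adjusted p = 0.0783). Myogenic markers summed to 5835 to 5919 CPM in PMs and 1369 to 1585 CPM in C2C12 cells at D0, and to 9391 to 11270 against 7631 to 8145 CPM at D6, so the cultures also differed in these, and the part of this in the differences above was not tested.

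The wider pathway was followed with 4 lists of other genes written by hand. They hold genes for latency and activation, traps and co-receptors, Smads and their regulators, and Tgfb response genes, and 50 of them were tested in C2C12 cells and 53 in PMs. After silencing, 1 of 50 was called at D0 and at D3 and 0 of 50 at D6 in C2C12 cells, where 0.438%, 1.27% and 0.0457% of all genes were called, and 1, 0 and 1 of 53 in PMs, where 2.6%, 3.3% and 0.743% were. By DESeq2 these were 2, 3 and 1 in C2C12 cells and 1, 1 and 1 in PMs. At an unadjusted p under 0.05 they were 6, 9 and 4 and then 10, 11 and 9. The C2C12 numbers over all genes are given above. In PMs an unadjusted p under 0.05 gave 1745 higher and 2011 lower of 16144 genes at D0. It gave 1814 and 1854 at D3 and 1006 and 908 at D6. DESeq2 called 250 higher and 203 lower of all genes in PMs at D0, 351 and 235 at D3, and 132 and 92 at D6. Of the 16 Smads and regulators 0 were called by edgeR or DESeq2 in any of these 6 comparisons, and at an unadjusted p under 0.05 there were 3, 2 and 0 in C2C12 cells and 4, 4 and 3 in PMs. The median log2 fold changes of the lists lay between -0.18 (traps and co-receptors in PMs at D6) and 0.40 (latency and activation in C2C12 cells at D6). In C2C12 cells at D6 the response genes had a median of 0.40, traps and co-receptors 0.25 and Smads and regulators 0.20, against 0.013 over all genes. In PMs at D3 the medians lay between 0.0026 for Smads and regulators and 0.20 for latency and activation, against 0.0079.

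The called genes were 4 in all. Tgfbi, a secreted matrix protein induced by Tgfb, was higher in C2C12 cells at D0, with 2.21 and 2.67 CPM against 0.478 and 0.338 CPM (log2 fold change 2.59, SE 0.38, adjusted p = 0.0275). Emilin1, a matrix glycoprotein that restrains Tgfb processing, was higher in C2C12 cells at D3, with 22.0 and 24.95 CPM against 7.86 and 8.82 CPM (1.47, SE 0.30, adjusted p = 0.0454). Tagln, an actin-binding protein, was lower in PMs at D0, with 30.1 and 21.3 CPM against 77.7 and 72.5 CPM (-1.56, SE 0.24, adjusted p = 0.00556). Dcn, the proteoglycan decorin that can trap Tgfb, was lower in PMs at D6, with 8.37 and 10.6 CPM against 64.3 and 40.2 CPM (-2.46, SE 0.39, adjusted p = 0.0184). So of these the response gene Tgfbi rose and the response gene Tagln fell, at D0 in different cell types. Emilin1 lost its call in each of 4 leave-outs (adjusted p from 0.0502 without siTead1/4 replicate 1 to 0.323 without siControl replicate 1), Tgfbi in 3 (0.0624 without siTead1/4 replicate 2, 0.164 without siControl replicate 1 and 0.227 without siControl replicate 2), Dcn in 3 (0.0634 without siTead1/4 replicate 2, 0.0922 without siControl replicate 1 and 0.145 without siTead1/4 replicate 1), and Tagln without siTead1/4 replicate 2 (0.0533).

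**Figure D4:**
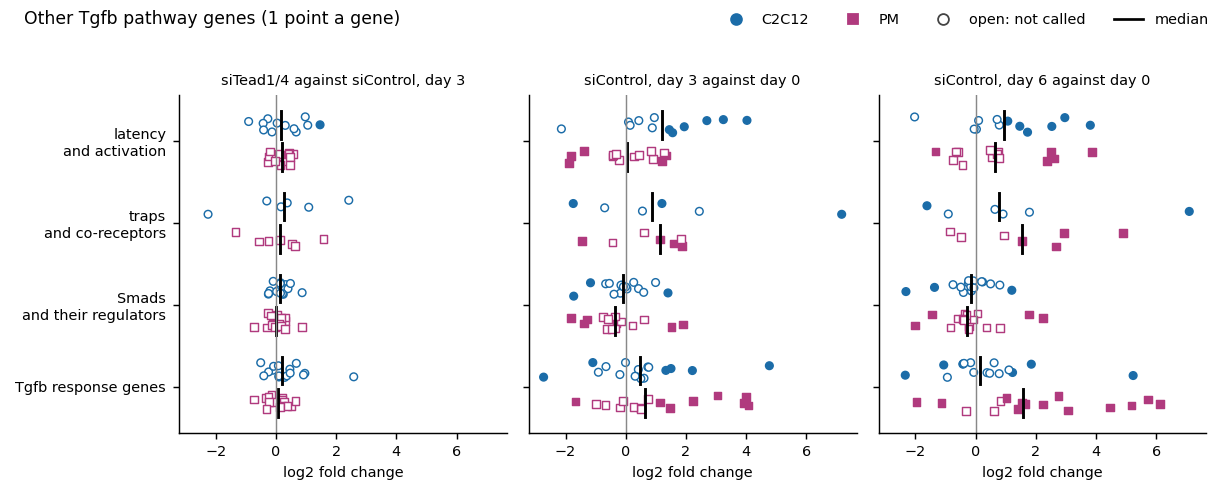
Log2 fold change of each tested gene of 4 hand-written lists (1 point a gene, C2C12 blue circles, PMs purple squares, filled where called, black bar the median) for siTead1/4 against siControl at D3 and for siControl D3 and D6 against D0. After silencing 1 symbol is filled, Emilin1 in C2C12 cells, and the open ones reach from -2.25 for Dcn to 2.58 for Postn, both in C2C12 cells. With time many are filled, and the median lies farthest to the right for Tgfb response genes in PMs at D6, at 1.59.

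With differentiation 13 of 50 rose and 5 fell in C2C12 cells at D3 against D0, and 14 of 53 rose and 8 fell in PMs, to be read against the 28.7% and 32.3% of all genes called. Among latency and activation genes 6 of 12 rose and 0 fell in C2C12 cells. By DESeq2 and at an unadjusted p under 0.05 the number that fell was likewise 0. Of all genes, 1741 fell by DESeq2 and 3646 at an unadjusted p under 0.05. Lrrc32, which encodes the latent Tgfb anchor GARP, rose most of this list in C2C12 cells (log2 fold change 4.03, SE 0.66, adjusted p = 0.00106). It started from a low level, with 0.225 and 0.302 CPM at D0 and 3.18 and 5.85 CPM at D3. In PMs 2 of 14 rose and 3 fell, with Fbn1 (fibrillin 1, to which Ltbp proteins attach) rising most (1.33, SE 0.12, adjusted p = 5.8e-06) and Itgb8, a subunit of a Tgfb-activating integrin, falling most (-1.89, SE 0.28, adjusted p = 0.000199).

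Traps and co-receptors at D3 counted 2 higher and 1 lower of 6 in C2C12 cells and 3 higher and 1 lower of 7 in PMs. That is 50.0% and 57.1% called, against 28.7% and 32.3% of all genes. Dcn led in C2C12 cells, with 181 and 70.6 CPM against 1.04 and 0.675 CPM (log2 fold change 7.17, SE 0.90, adjusted p = 0.000213, or 6.35 without siControl D3 replicate 1), and biglycan (Bgn) in PMs, with 640 and 623 CPM against 143 and 189 CPM (1.87, SE 0.19, adjusted p = 1.3e-05). The pseudoreceptor Bambi, which dampens Tgfb signalling, fell in both from low levels. In C2C12 cells it had 0.920 and 0.202 CPM against 2.34 and 1.30 CPM (log2 fold change -1.74, SE 0.58, adjusted p = 0.0346). In PMs it had 1.46 and 1.16 CPM against 2.86 and 4.11 CPM (-1.46, SE 0.28, adjusted p = 0.00110). The C2C12 call of Bambi was lost without siControl D0 replicate 1 (-1.26, adjusted p = 0.197) or D3 replicate 2 (-1.02, adjusted p = 0.177), and without D3 replicate 1 the change was -3.17.

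Smad3, the signal transducer, was the largest rise among Smads and regulators in both cell types, with 126 and 136 CPM against 45.6 and 50.5 CPM in C2C12 cells (log2 fold change 1.40, SE 0.25, adjusted p = 0.00152) and 108 and 118 CPM against 29.3 and 29.3 CPM in PMs (1.89, SE 0.10, adjusted p = 2.3e-07). The inhibitory Smads were the largest falls, Smad7 in C2C12 cells (-1.73, SE 0.33, adjusted p = 0.00251) and Smad6 in PMs (-1.82, SE 0.43, adjusted p = 0.00404), which were -2.32 without C2C12 siControl D3 replicate 1 and -2.52 without PM siControl D3 replicate 2. In all 1 of 16 rose and 2 fell in C2C12 cells, which is 18.8% called against 28.7% of all genes. In PMs 2 rose and 3 fell, or 31.2% against 32.3%.

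Tgfb response genes rose in 4 and fell in 2 of 16 in C2C12 cells at D3, and rose in 7 and fell in 1 of 16 in PMs. That is 37.5% and 50.0% called, against 28.7% and 32.3% of all genes. Periostin (Postn), a matricellular protein, rose most in C2C12 cells (log2 fold change 4.77, SE 0.84, adjusted p = 0.00153). In PMs Col1a1, a chain of type I collagen, rose from 74.7 and 47.3 CPM to 1124 and 1024 CPM (4.08, SE 0.38, adjusted p = 7.3e-06), and Snai2, the transcription factor Slug, fell from 46.9 and 56.6 CPM to 12.0 and 21.9 CPM (-1.66, SE 0.25, adjusted p = 0.000227). At D6 against D0, 11 of 16 rose and 2 fell in PMs, while 3 rose and 2 fell in C2C12 cells, against 35.5% and 31.1% of all genes called. The summed fibroblast markers given above rose in the same PM libraries, and their part in this was not tested.

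The genes whose pattern was most like each member's were found by Pearson's r of log2 CPM over the 12 group means, as a description that rests on 2 cell types, 2 siRNAs and 3 days. For Tgfb2 they were St5 (r = 0.946), Zfp74 (0.918) and Rnf34 (0.917). Tgfb3 had the closest match of all in Fam171a2 (0.993), followed by Adamtsl2 (0.992) and Rap1gap2 (0.989). For Tgfbr2 they were Car11 (0.989), Vwa5a (0.987) and Mmp2 (0.985), and for Tgfb1 Cd53 (0.964), Klrb1a (0.962) and Klf11 (0.951). Tgfbr1 was most like Lnpep (0.963) and Atad2b (0.959), and Tgfbr3 most like Bach1 (0.975), 4933426M11Rik (0.975) and Serinc3 (0.973). Among the binders, Ltbp1 was closest to Tubb5 (0.965), Gstcd (0.959) and Hmgb3 (0.957), Ltbp2 to Cd53 (0.959) and Lgals9 (0.955), and Ltbp3 to Fstl1 (0.960), Ltbp2 (0.955) and Synpo (0.950). Ltbp2 was thus the one member that appeared among the nearest genes of another.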

How the data were processed

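Polyadenylated RNA of 24 libraries was sequenced, and the authors deposited raw read counts per gene, unnormalized, for build mm9. Per the labels' processing notes the tools were CASAVA 1.8.2, TopHat2 2.0.10, Bowtie2 2.1.0, HTSeq 0.6.1 and DESeq2 1.8.1, while the annotation release is not given in the sources used here. The libraries do not keep the strand. A further 36 columns belong to 12 libraries outside the sample list and were not used. The members, lists and comparisons were chosen with earlier results of these data known.

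Counts were fitted in R 4.3.3 with edgeR 4.0.16 (filterByExpr, TMM, glmQLFit and glmQLFTest), each cell type as 12 libraries with 6 group means, and all 24 libraries with 12 means for comparisons between cell types. P-values were adjusted over all genes tested by the Benjamini-Hochberg method. DESeq2 1.42.0 was an alternative, beside other scaling, filters, libraries in the fit, a replicate block and the omission of each library. The fits were tested on simulated data. With 2 replicates per group the spread is shared across groups and genes. Fold changes of a member are printed where its adjusted p was under 0.05 or its absolute log2 fold change over 1, and for each list the called genes with the largest rise and fall in the siTead1/4 comparisons and at D3 against D0. Where a symbol had several rows, the row with the most counts was taken. CPM for the similar genes used a prior count of 2. Promoter windows are from RefSeq on GRCm38.p6, a later build than that of the counts, and no position was converted. A few genes that these rules would name are not reported here.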

Additional observations from a re-analysis of the deposited data

Results flagged for a closer look

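In 4 cases the siControl time course of a member differed between the cell types by the interaction test of edgeR at an adjusted p under 0.05 with an absolute log2 difference over 1. For Tgfb2 the difference, PM minus C2C12, was -1.90 at D3 against D0 and -1.66 at D6 against D0, since it rose in C2C12 cells and was not called in PMs. For Ltbp2 it was 4.63 at D6 against D0, where PMs rose and C2C12 libraries overlapped between the days. For Tgfb1 it was 1.20 at D6 against D0, the smallest of the 4 and the one that lost its call whichever of the 8 libraries was left out. Cell type, strain and medium cannot be told apart in these differences.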

How the results depend on the processing

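With 2 replicates per group many calls lie near the thresholds. None of the fold changes given reversed under any alternative. In C2C12 cells 0 of the 9 genes were called after silencing. DESeq2 and the fit of all 24 libraries each called 1 at D0 and 1 at D6 there. With no filter on low counts 2 were called at D0 and 1 at D6. Over all genes DESeq2 called 108 higher and 147 lower at D0, against 21 and 46 in the reported fit. At D6 it called 35 and 107, against 2 and 5. Such counts are not given here for the fit of all 24 libraries or for no filter. In PMs the 1 called at D6 became 0 in the fit of all 24 libraries and in one of its own libraries alone. That last fit called 0 higher and 0 lower of all genes, against 75 and 45 in the reported fit. The 1 called in PMs at D3 became 2 with no filter on low counts. With only its own libraries the D6 against D3 comparison in PMs called 0 in place of 1. Of all genes it then called 124 higher and 24 lower, against 358 and 94. For the difference in time course at D3, called for 1, DESeq2 called 2, no filter 3 and only its own libraries 3. Over all genes the reported fit called 641 higher and 1260 lower there, DESeq2 728 and 1363, and its own libraries 790 and 1493. No fold threshold, chosen after seeing the data, gave 2 for PMs at D0 and at D3 after silencing. It gave 5 for D3 against D0 and 2 for D6 against D3 in PMs, and 5 for PMs against C2C12 cells at D3. Over all genes it gave 551 higher and 696 lower for PMs at D0 and 631 and 553 at D3 after silencing. In PMs it gave 4792 and 4702 for D3 against D0 and 599 and 410 for D6 against D3. Between cell types at D3 it gave 4055 and 3699. Ltbp1 in C2C12 cells at D6 against D0 and Ltbp3 between cell types at D0 lie at the fold threshold. The cause of these changes was not tested.

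Leaving out each library in turn gave 0 to 1 members for C2C12 at D3 after silencing, 0 to 1 for PMs at D0 and at D3, 0 to 0 at D6, 3 to 5 for both C2C12 comparisons with D0, 0 to 1 for D6 against D3 in PMs, 0 to 1 for the difference of the effects at D3, and 1 to 2 for both differences in time course.

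Replicate numbers are shared between groups, but no source ties them to a batch or culture, and same-numbered libraries of the silenced and control groups of a day deviated from their group means with r of -0.13, 0.090 and 0.47 in C2C12 cells and 0.38, 0.41 and 0.50 in PMs. Over all pairs of PM groups r was 0.055 to 0.50. A replicate block called 2 in place of 1 for PMs at D3 after silencing, where Ltbp2 was added (-1.30, adjusted p = 0.0447). It called 5 in place of 3 between cell types at D3. For the difference in time course at D3 it called 2 in place of 1, where Tgfbr2 was added (-1.04, adjusted p = 0.0239). Over all genes the block called 489 higher and 303 lower for PMs at D3 after silencing, against 339 and 193 without it. Between cell types at D3 it called 2952 and 2325, against 2909 and 2135. For the difference in time course at D3 these were 753 and 1429, against 641 and 1260. Of the fold changes, 79 kept their side of the threshold under the replicate block, 5 gained it and 1 lost it. With the numbers crossed, chosen after seeing the data, C2C12 at D0 after silencing had 37 genes higher and 83 lower. The block with the numbers as labelled gave 27 and 55 there, and no block 21 and 46. PMs against C2C12 cells at D6 had 2600 higher and 1633 lower with the numbers crossed. As labelled they had 2665 and 1681, and with no block 2650 and 1560.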
